A study of Homo sapiens with 14 samples.

Results

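HOXD9 was compared with its vector in HEK293 cells, a human embryonic kidney line, on the 7 arrays of the HA tag set out of 14 arrays in the series. The members were chosen by their titles alone: 4 arrays of lines made with the HA-tag-HOXD9 vector and 3 arrays of lines made with the HA-tag vector. All 7 cultures descend from transfected HEK293 cells kept under G418, a drug that kills cells lacking the resistance gene of the plasmid, so the vector cells share the tag and the selection. The HOXD9 lines were a line labelled mix clone and clones a, b and c, which the labels call independent but also taken from the mix, so the 4 lines share a source and each lettered line is 1 clone. The HA vector arrays are called biological replicates in the labels, which do not say how the cultures were separated, so a p-value here weighs only the scatter among these arrays, which may be partly technical. The promoter that drives the transgene is not given in the sources used here. The other 7 arrays (V5 tag) were normalized apart and entered no level given here.

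HOXD9 is a homeodomain transcription factor of the HOXD cluster, where genes at the posterior end pattern the limbs, the lumbar skeleton and the urogenital tract. HOX proteins bind short AT-rich DNA, usually together with cofactors of the TALE class such as PBX and MEIS, and the posterior members to which HOXD9 belongs favour a TTTAT-like core over the TAAT core of many other homeodomains.

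Values are log2 GCRMA expression values per probe set, a scale on which a difference of 1 is a doubling, and levels of different genes are not compared. Where 3 vector values and 4 line values are listed, the lines stand in the order mix, a, b, c. A gene was tested when its probe set reached 5 on at least 3 of the 7 arrays, and 9670 genes were. The lines varied far more than the vectors, with a median SD per gene of 0.27 (n = 4) against 0.05 (n = 3). The arrays were also compared in a sign of RNA and labelling. GAPDH control probe sets differed, 3 prime minus 5 prime, by 0.607 to 0.644 in the lines and 0.646 to 0.686 in the vectors. The groups were only just apart, with clone b at 0.644 and HA vector 3 at 0.646 (exact permutation test, two-sided, p = 0.0571, the smallest this design allows). For ACTB this difference was 1.70 in clone a, 2.10 in clone c and 2.26 to 2.35 in the mix and clone b. The vectors read 2.29 to 2.37 (exact permutation p = 0.229). With the ACTB difference as a covariate 950 genes had an unadjusted p under 0.05, against 2361 without it. Leaving out 1 vector array, with no covariate, also lowered this count, to between 869 and 914. Leaving out a HOXD9 line gave 2427 without the mix, 1865 without clone a, 3800 without clone b and 2521 without clone c. The parts of the ACTB difference in the drop with the covariate and of the GAPDH difference in the results were not tested.

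The labelled line was checked against its markers. Of 11 genes typical of HEK293 that the array carries, 8 passed the filter, among them the neurofilament gene NEFL at 10.65 (vector mean) and 10.31 (HOXD9 mean), the neuronal intermediate filament gene INA at 9.90 and 9.91, and the keratin KRT18 at 11.03 and 11.35. NEFM and LHX1 lay at the floor of the array, with vector means of 2.42 and 2.47. Most markers of other cells were near that floor: 9 of 10 fibroblast, 8 of 9 endothelial, 8 of 8 blood and 6 of 9 squamous and other epithelial markers stayed under 3 on all 7 arrays. Their summed log2 levels were 28.9 to 29.0 in the vectors and 27.0 to 29.8 in the lines for fibroblast, 23.4 to 23.9 and 23.7 to 24.7 for endothelial, 19.1 in all vectors and 18.9 to 19.2 in the lines for blood, and 28.9 to 29.2 and 28.8 to 31.1 for the epithelial list. The collagen gene COL1A1 was the 1 fibroblast marker that passed the filter. Its brightest probe set ranged from 5.30 in clone a to 8.12 in clone c around a vector mean of 7.27. The other COL1A1 probe set that passed did not fall in clone a, with 5.815 there, 6.293 in clone c and 5.52 to 5.761 in the vectors. Further COL1A1 probe sets stayed near the floor. SFN, an epithelial 14-3-3 protein, read 7.37 to 8.24 over all arrays, and EGFL7, CDX2 and KLK3 reached 4.92, 4.53 and 4.06.

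HOXD9 itself was the 1 gene called, at an adjusted p under 0.05 by limma with Benjamini-Hochberg adjustment over the 9670 genes, which is 0.0103% of them. Its brighter probe set read 2.52, 2.83 and 2.82 in the vectors, and 6.84, 6.70, 6.65 and 7.76 in the lines. Every line lay far above every vector, and clone c was highest. HOXD9 rose by 4.26 (SE 0.27, limma adjusted p = 0.00176) from 2.73 ± 0.18 (SD, n = 3) to 6.99 ± 0.52 (SD, n = 4). The vectors were near the floor, where GCRMA's background model sets the size of the difference. The gene passed the filter, and this probe set was the brighter of the pair, through the lines alone, so the value checks the labels of the lines and is no finding. The other HOXD9 probe set, brighter in the vectors, did not pass the filter, with 4.20 to 4.24 in the vectors and 4.33 to 4.54 in the lines. The call ended with the ACTB difference as a covariate (limma adjusted p = 0.0878) and without the filter (0.0668). In the model of all 14 arrays, RAC3 joined it as a call (limma adjusted p = 0.0026).

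Beside this call stood a broad tilt that did not reach the threshold gene by gene. Of the 9670 genes, 2361 (24.4%) had an unadjusted p under 0.05, of which 1580 were higher and 781 lower in the lines. In 3680 genes (38.1%) all 4 lines lay beyond all 3 vectors, above them in 2249 (23.3%) and below them in 1431 (14.8%). Such counts are read below against these shares. Without clone b the other lines lay above the vectors in 3434 genes, and below them in 2067. With the trend of each array with gene length removed, 3345 genes (34.6%) lay beyond the vectors, and the split was nearly even, 1698 above and 1647 below. That removal also brought the median difference over all genes from 0.08 to 0.02, which by itself favours an even split. For most genes the step between groups was small. The nearest line was over 0.5 log2 units away from the vector range in 18 genes above it, HOXD9 included, and in 5 below it.

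**Figure D1:**
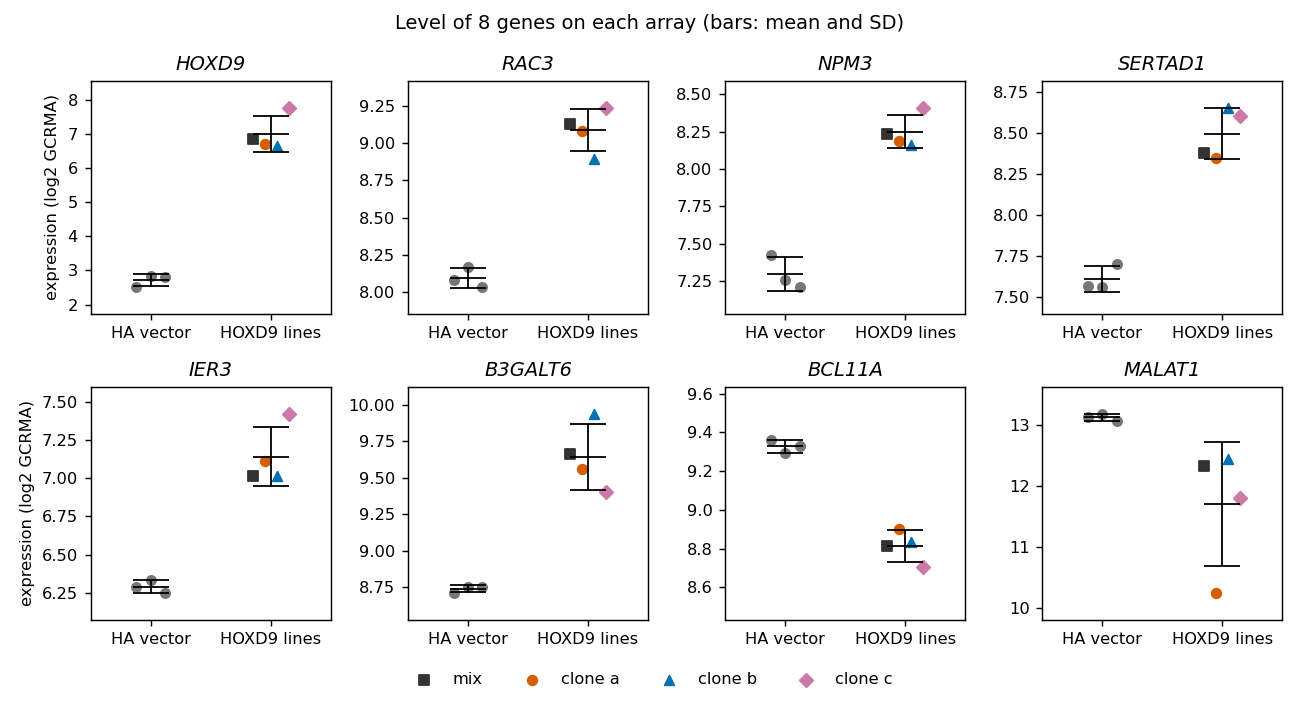
Expression (log2 GCRMA) of 8 genes on each of the 7 arrays, with HA vectors as grey circles, the HOXD9 lines by symbol, and bars for the mean and SD; each panel has its own axis, which does not start at 0. In all 8 genes the 4 lines and the 3 vectors do not overlap, but HOXD9 alone passed the test over all genes.

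RAC3 was next by p-value. It encodes a small GTPase, close kin of RAC1, which drives actin assembly at the cell edge when bound to GTP and is prominent in neural cells. Its 1 probe set read 8.08, 8.17 and 8.04 in the vectors and 9.13, 9.08, 8.90 and 9.24 in the lines. Clone b was lowest and clone c highest, and the nearest line was 0.73 above the highest vector. The difference of 0.99 (SE 0.12, 1.99-fold) had an adjusted p of 0.0931 by limma and so did not pass on these 7 arrays, with a range of 0.0026 to 0.449 over the alternatives tried.

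The partners of RAC GTPases showed no common direction. Of 23 regulators of RAC and CDC42 tested 0 were called (3 at an unadjusted p under 0.05), with the lines above the vectors in 2 (8.7%) and below them in 5 (21.7%) and a median of 0.00. The exchange factor SOS2 had the smallest p, with -0.92 (limma adjusted p = 0.191) and line values from 6.52 in clone a to 7.67 in clone b below a vector mean of 8.13; with the ACTB covariate SOS2 stood at -0.52. Of 26 effectors 0 were called (5 at an unadjusted p under 0.05), with 5 (19.2%) above and 6 (23.1%) below. ARPC4, a subunit of the ARP2/3 complex that branches actin, stood at 0.52 and ACTR3, its actin-related core subunit, at -0.31 (limma adjusted p = 0.191 each). NCKAP1, a subunit of the WAVE complex through which RAC reaches ARP2/3, had -1.17, but its shift was -2.73 in clone a and -0.29 in clone b.

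NPM3, a nucleolar protein of the nucleoplasmin family of histone chaperones, stood beside RAC3. Its 1 probe set read 7.43, 7.26 and 7.21 in the vectors and 8.24, 8.19, 8.16 and 8.41 in the lines. The 4 lines were as tight as the 3 vectors, with an SD of 0.11 in both groups, and the nearest line was 0.74 above the highest vector. The difference of 0.95 (SE 0.11, 1.94-fold) had a limma adjusted p of 0.0931 and a range of 0.0509 to 0.449 over the alternatives, so no alternative called it.

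The sequence before the NPM3 start is shown because HOX cores are short AT-rich words and this gene had the widest gap after HOXD9. It is the 250 bases before the start of the gene in RefSeq (GRCh38.p14, chr10:101783447-101783696, minus strand, written 5′ to 3′), with matches to TTTAT or TAAT on either strand in capitals. The window holds 2 TTTAT and 1 TAAT match.
NPM3: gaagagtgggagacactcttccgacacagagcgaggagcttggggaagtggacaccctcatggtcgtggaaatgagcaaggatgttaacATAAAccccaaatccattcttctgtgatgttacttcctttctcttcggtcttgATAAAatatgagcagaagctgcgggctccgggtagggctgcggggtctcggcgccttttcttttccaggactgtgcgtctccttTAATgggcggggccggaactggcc

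Windows of the same length were found for 8106 of the 9670 genes tested. A TTTAT match on either strand was in 18.8% of them and a TAAT match in 32.0%, and the same stretch can match both. Among genes with all lines above the vectors these shares were 18.3% and 29.4%, and among genes with all lines below them 19.4% and 33.9%. The median GC content was 65.2%, 66.0% and 65.6% in the genes above, the genes below and all genes tested. These counts describe letters in the window and name no bound site.

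The list of histone chaperones, with NPM3 counted in every value, gave 0 calls among 24 tested (7 at an unadjusted p under 0.05). The lines lay above the vectors in 8 (33.3%) and below them in 2 (8.33%). HIRA, which places the histone variant H3.3, read 8.51, 8.38 and 8.54 in the vectors and 9.22, 9.15, 9.09 and 9.51 in the lines, a difference of 0.76 (SE 0.13, limma adjusted p = 0.183). DAXX, another H3.3 chaperone, stood at 0.41 and the replication chaperone gene CHAF1A at 0.33 (adjusted p = 0.191 each). NPM1, the abundant family member that shuttles ribosomal parts out of the nucleolus, lay on the other side at -0.37 (limma adjusted p = 0.216). The median of this list was 0.06, and -0.01 with the length trend removed.

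Ribosome assembly factors lay above the vectors or overlapped them. Of 41 tested 0 were called (16 at an unadjusted p under 0.05), the lines were above the vectors in 18 (43.9%, against 23.3% over all genes) below them in 0 and overlapping in 23, and the median was 0.26. By line the median was 0.17, 0.40, 0.04 and 0.38, lowest in clone b. NOP2, a methyltransferase of 28S ribosomal RNA, stood at 0.60, and UBTF, the factor that opens ribosomal DNA for RNA polymerase I, at 0.53 with shifts of 0.45, 0.43, 0.42 and 0.82 in the lines (limma adjusted p = 0.191 for both). The list median was 0.11 with the length trend removed.

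Mitochondrial ribosomal proteins showed the highest share of the larger lists. The lines lay above the vectors in 26 of 39 genes (66.7%) and below them in 0, with 0 called (21 at an unadjusted p under 0.05) and a median of 0.33. MRPL11, a protein of the large subunit, read 9.25, 9.19 and 9.24 in the vectors and 9.63, 9.87, 9.56 and 9.88 in the lines, with a difference of 0.51 (SE 0.12, limma adjusted p = 0.191). These genes are short, with a median genomic length of 5.83 kb against 33.0 kb over all genes, and the list median was 0.16 with the length trend removed. Nuclear genes of oxidative phosphorylation had the lines above in 27 of 55 (49.1%), 0 below, 0 called (15 at an unadjusted p under 0.05) and a median of 0.13, which turned to -0.04 with that trend removed. ATP5F1D, a subunit of ATP synthase, stood at 0.53 (adjusted p = 0.191). Cytosolic ribosomal proteins, short genes too with a median of 4.52 kb, had a median of only 0.03, with 7 of 25 above, and -0.20 with the trend removed; RPS9 stood at 0.14.

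**Figure D2:**
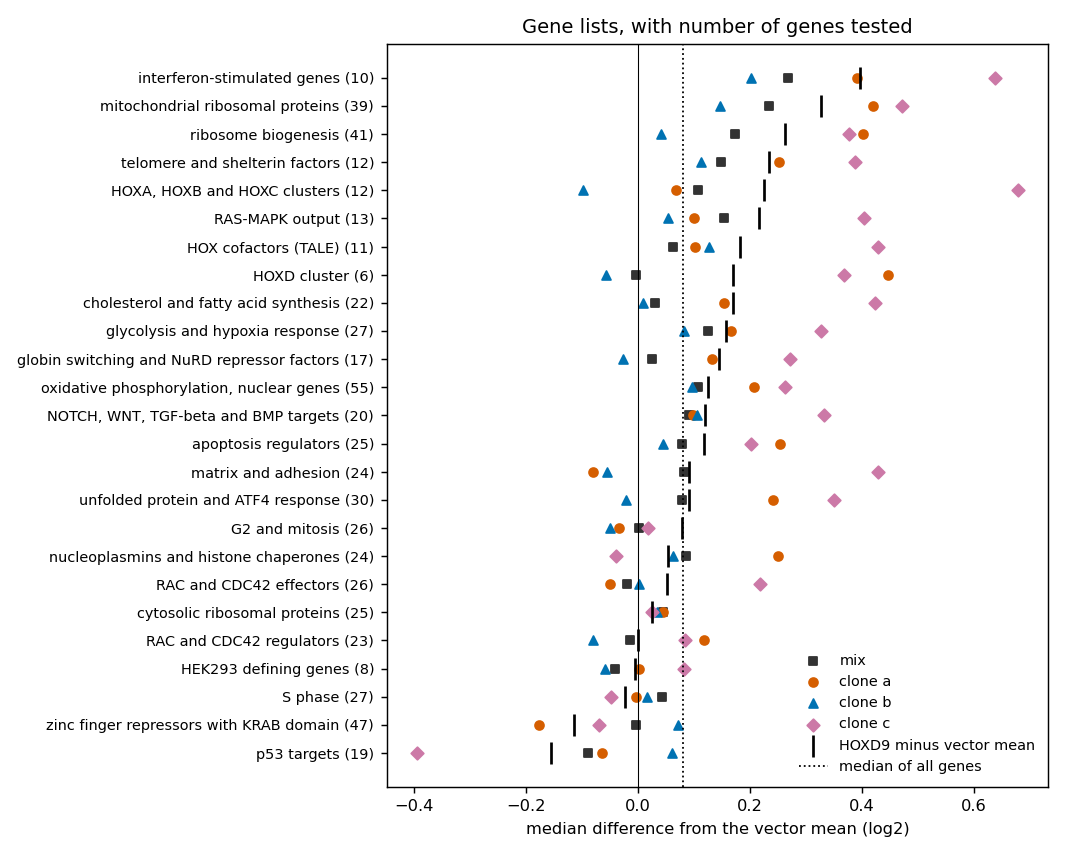
Median difference from the vector mean (log2) of gene lists with at least 5 genes tested, per line (symbols) and for the mean of the lines (bar); the dotted line is the median of all genes, 0.08. The medians of the interferon, mitochondrial ribosome, telomere, oxidative phosphorylation and glycolysis lists are above the dotted line in every HOXD9 line. So are those of the NOTCH, WNT, TGF-beta and BMP targets. The median of all genes differs by line: mix 0.041, clone a 0.117, clone b 0.004, clone c 0.201. Set against these, the NOTCH, WNT, TGF-beta and BMP targets are lower for clone a (0.099) and higher for the other lines.

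The next widest gaps above the vectors, after NPM3 and RAC3, were those of IER3 (0.68), B3GALT6 (0.65) and SERTAD1 (0.65). SERTAD1, a transcriptional coregulator that binds cyclin-dependent kinase CDK4, read 7.57, 7.56 and 7.70 in the vectors and 8.38, 8.35, 8.65 and 8.61 in the lines (difference 0.89, SE 0.12, limma adjusted p = 0.17). IER3, an immediate early gene of growth factor and stress signalling, read 6.29, 6.33 and 6.25 in the vectors and 7.02, 7.11, 7.02 and 7.42 in the same order of lines (0.85, SE 0.13, limma adjusted p = 0.17). Clone c was highest of the lines for IER3 and clone b for SERTAD1, and in neither gene did the groups overlap. B3GALT6, an enzyme that builds the linker between proteoglycans and their sugar chains, read 8.71 to 8.75 in the vectors and 9.66, 9.56, 9.94 and 9.40 in the lines (0.90, adjusted p = 0.174). That was 1 of its probe sets. A probe set of similar brightness differed by 0.03, and the mean of the B3GALT6 probe sets by 0.47.

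The remaining genes of the widest gaps above the vectors were ISOC2 and the antisense transcript ATP2A1-AS1. ISOC2, a protein with an isochorismatase-like fold, stood at 0.80 (SE 0.12) and ATP2A1-AS1 at 0.69 (SE 0.10), each at a limma adjusted p of 0.17. ATP2A1-AS1 was the tightest, at 8.25 ± 0.05 (SD, n = 3) in the vectors and 8.94 ± 0.05 (SD, n = 4) in the lines. Signal of an antisense gene rests on the strand its probes were designed for, which was not examined. The HA vector and HOXD9 groups were separated without overlap in each of these genes, by 0.56 for ISOC2 and 0.59 for ATP2A1-AS1.

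The upstream window of SERTAD1 is printed beside that of NPM3 because the gene had a similar gap and none of the letters searched. It lies on chromosome 19 (GRCh38.p14, RefSeq, chr19:40425993-40426242, minus strand, 5′ to 3′) and has a GC content of 64.8%, against 53.6% for NPM3.
SERTAD1: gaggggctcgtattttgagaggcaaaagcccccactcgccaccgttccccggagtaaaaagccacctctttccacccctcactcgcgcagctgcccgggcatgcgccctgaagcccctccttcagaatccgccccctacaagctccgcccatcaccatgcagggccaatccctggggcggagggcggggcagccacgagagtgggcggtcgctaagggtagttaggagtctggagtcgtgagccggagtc

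Genes with the widest gap below the vectors differed more between lines than those above. MALAT1, a long noncoding RNA kept in the nucleus, read 13.14, 13.19 and 13.08 in the vectors, and 12.34, 10.25, 12.45 and 11.81 in the lines. The difference of -1.42 (SE 0.48) had a limma adjusted p of 0.191, and 8 of its 9 probe sets that passed the filter had the same sign. MALAT1 stood at -0.93 without clone a, at -0.65 with the ACTB difference as a covariate and at -0.95 as the mean of its probe sets. DLEU2, a noncoding host transcript of a microRNA cluster on chromosome 13, read 5.96 to 6.04 in the vectors and 5.08, 4.06, 5.30 and 4.04 in the lines (-1.39, SE 0.32). The pseudogene transcript DUXAP10 stood at -1.26, the motor adaptor HOOK3 at -1.05, the DNA demethylase TET1 at -0.97, the proton pump subunit ATP6V1C1 at -0.94, the RNA surveillance factor ZCCHC7 at -0.81 and the scaffold MAGI3 at -0.77, each at a limma adjusted p of 0.191. Clone a or clone c was the lowest line in all 8 of these genes on the brightest probe set of each. The order of lines changed between MALAT1 probe sets. On a further MALAT1 probe set clone a was again lowest, at 7.43. On another clone b was lowest at 8.37 and clone a highest of the lines at 10.13. On yet another clone a, at 9.60, lay above every vector. With the ACTB covariate DUXAP10 stood at -0.70 and ZCCHC7 at -0.51, and as means of probe sets they stood at -0.83 and -0.52 and ATP6V1C1 at -0.49. Other probe sets of ATP6V1C1 read -0.19 and -0.33, with a line above the vector mean in each.

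**Figure D3:**
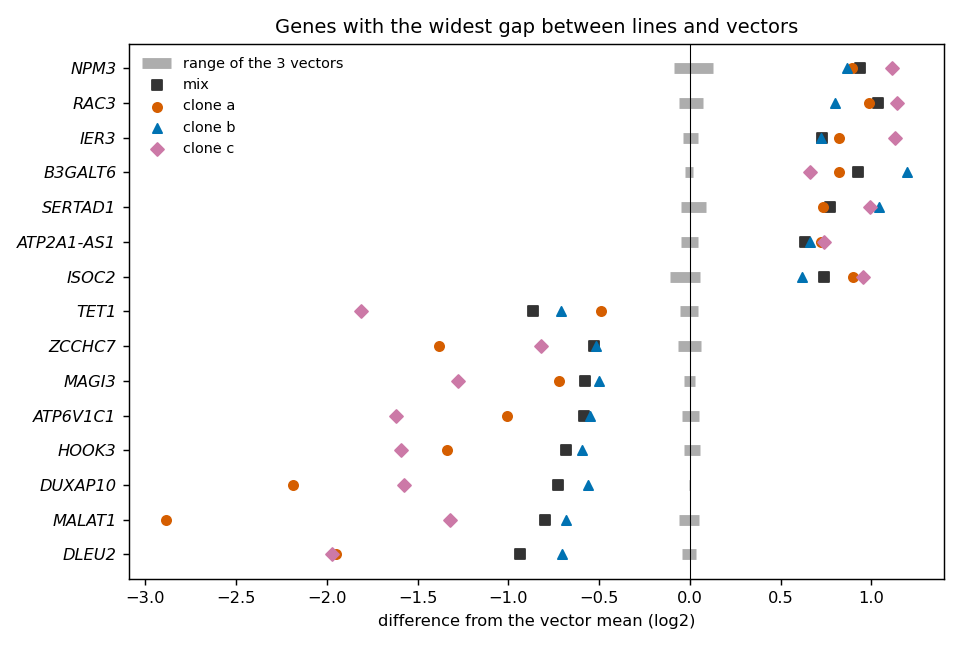
Difference from the vector mean (log2) in each HOXD9 line (symbols) and the range of the 3 vectors (grey bars) for the 7 genes after HOXD9 with the widest gap above the vectors and the 8 with the widest gap below. Above the vectors every line is at least 0.62 above the vector mean, and below them the lines spread from -0.49 to -2.89.

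BCL11A, a zinc finger repressor that silences fetal globin in red cells and acts in neurons, was the gene with the smallest p among those below the vectors. Its brightest probe set read 9.36, 9.30 and 9.33 in the vectors and 8.81, 8.90, 8.84 and 8.71 in the lines. The difference of -0.51 (SE 0.10, limma adjusted p = 0.191) was nearly the same in each line. Its probe sets went opposite ways: 2 further ones stood at -0.55 and -0.40, while the dimmest stood at 0.65 (BCL11A as the mean of its probe sets stood at -0.20), with all 4 lines between 0.57 and 0.76 above the vector mean. None passed over all probe sets (limma adjusted p = 0.224 for the 3 lower ones and 0.221 for the higher one), and which transcripts each reads was not examined. The list of NuRD complex genes and globin switch factors that holds BCL11A had 0 of 17 called, 3 (17.6%) above and 3 (17.6%) below the vectors.

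The upstream window of BCL11A is shown as 1 example from the genes below the vectors (GRCh38.p14, RefSeq, chr2:60553925-60554174, minus strand, 5′ to 3′). It holds 0 TTTAT and 1 TAAT match.
BCL11A: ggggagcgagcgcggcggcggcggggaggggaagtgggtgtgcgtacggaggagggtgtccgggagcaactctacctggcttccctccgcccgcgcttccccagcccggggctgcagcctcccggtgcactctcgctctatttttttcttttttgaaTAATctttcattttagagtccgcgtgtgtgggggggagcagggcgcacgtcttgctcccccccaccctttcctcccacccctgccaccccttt

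Other HOX genes gave 0 calls. Of 6 HOXD genes tested HOXD9 was the 1 call. HOXD13, the posterior end of the cluster, read higher in all 4 lines by 0.17, 0.58, 0.23 and 0.44 (difference 0.36, limma adjusted p = 0.191). HOXD10, the neighbour of HOXD9, stood at -0.18, HOXD11 at 0.24, HOXD8 at 0.10 and HOXD4 at 0.03, and their lines overlapped the vectors. Of 12 genes of the other clusters 0 were called and the lines lay above the vectors in 2 (16.7%), HOXC10 at 0.43 and HOXB9 at 0.22. The median of these 12 was 0.68 in clone c and -0.10 in clone b. With the length trend removed the median of the HOXD list, which includes HOXD9 itself, turned from 0.17 to -0.06. That of the other clusters turned from 0.23 to -0.01.

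TALE cofactors, the DNA-binding partners of HOX proteins, gave 0 calls among 11 (3 at an unadjusted p under 0.05), with the lines above the vectors in 5 (45.5%) and below them in 0. PBX2 was the most even, with 8.71, 8.68 and 8.72 in the vectors and 9.08, 9.02, 9.15 and 9.12 in the lines. Its difference of 0.39 (SE 0.10) had a limma adjusted p of 0.191, and with the length trend removed PBX2 stood at 0.16. The repressor TGIF2 stood at 0.38 and PBX4 at 0.44 (adjusted p = 0.191 and 0.196), while MEIS2 and PBX3 read -0.13 and -0.12. The list median of 0.18 was 0.20 with the length trend removed.

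Immediate early and interferon genes gave 0 calls by limma, with 5 of 13 and 7 of 10 at an unadjusted p under 0.05. Of 13 outputs of RAS-MAPK signalling 5 (38.5%) had all lines above the vectors and 1 (7.69%) below. Beside IER3 these were IER2 at 0.56, EGR1 at 0.51, MYC at 0.42 and the feedback inhibitor SPRY2 at 0.08, while SPRED1, another inhibitor of the pathway, stood at -0.63. Of 10 interferon-stimulated genes 5 had all lines above the vectors, and the list median was 0.40, or 0.16 with the length trend removed. These are short genes, with a median of 4.35 kb. The antiviral membrane proteins IFITM1, IFITM2 and IFITM3 stood at 0.48, 0.47 and 0.51 and the interferon-induced mitochondrial protein IFI6 at 0.65. On the other side IFIT5, a sensor of foreign RNA and the member with the smallest p, stood at -0.74 (limma adjusted p = 0.191). Another IFIT5 probe set stood at -0.56, with clone c at 4.18 but clones a and b at 6.58 and 6.59, above every vector.

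Genes of cell death and of p53 lay on both sides of the vectors. Over all genes the lines lay above the vectors in 23.3% and below them in 14.8%. Of 25 apoptosis regulators 0 were called (10 at an unadjusted p under 0.05), 8 (32.0%) lay above and 3 (12.0%) below the vectors. Those above included the pore formers BAX at 0.51 and BAK1 at 0.71 and the activator BIK at 0.53, and those below the caspase inhibitor XIAP at -0.99, the apoptosome scaffold APAF1 at -0.50 and the survival factor BCL2 at -0.34 (limma adjusted p of 0.191 to 0.244 for these 6). Of 19 p53 targets 7 (36.8%) lay above and 6 (31.6%) below. The nuclease AEN and the DNA damage sensor DDB2 stood at 0.45 and 0.40, and MDM2, the ligase that degrades p53, and RRM2B, a subunit of ribonucleotide reductase, at -0.74 and -0.98.

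Proliferation genes did not share a direction. Of 27 S phase genes 7 (25.9%) lay above and 4 (14.8%) below the vectors, close to the 23.3% and 14.8% over all genes. MCM5 of the replicative helicase stood at 0.43 (limma adjusted p = 0.191). Of 26 genes of G2 and mitosis 6 (23.1%) lay above and 7 (26.9%) below. TOP2A, which untangles chromosomes before mitosis, read 11.72, 11.69 and 11.73 in the vectors and 11.08, 10.68, 11.34 and 10.63 in the lines (-0.78, SE 0.18, limma adjusted p = 0.191). Both of its bright probe sets read lower in every line.

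The telomere list held ZBTB48, which binds telomere repeats and limits their length, at 0.59 (limma adjusted p = 0.191), with the lines above the vectors in 7 of 12 genes (58.3%) and a median of 0.24. With the length trend removed the list median was 0.04 and ZBTB48 stood at 0.39. The KRAB zinc finger list held ZNF595 at 0.55 (SE 0.10, limma adjusted p = 0.183), with 6.45 to 6.50 in the vectors and 6.94 to 7.07 in the lines. The median of that list was -0.11 over 47 genes with 9 (19.1%) above and 3 (6.38%) below the vectors. Lists of metabolism and stress gave 0 calls each. In glycolysis and hypoxia 13 of 27 (48.1%, against 23.3% over all genes) lay above and 4 (14.8%, as over all genes) below. In the unfolded protein and ATF4 response 8 of 30 (26.7%) lay above and 4 (13.3%) below. In cholesterol and fatty acid synthesis 5 of 22 (22.7%) lay above and 2 (9.09%) below. The members of these lists with the smallest p were PDK1, a brake on pyruvate use, at -0.53, SHMT2, a mitochondrial enzyme of serine breakdown, at 0.44 and PMVK, a kinase of the mevalonate pathway, at 0.51. In NOTCH, WNT, TGF-beta and BMP targets 6 of 20 lay above and 0 below, with the pseudoreceptor BAMBI at 0.50, and in matrix and adhesion 5 of 24 lay above and 5 below, with the laminin chain LAMA1 at 0.46. KRT8, a keratin of simple epithelia, led the HEK293 list at 0.43 with 9.80 to 9.84 in the vectors and 10.06 to 10.56 in the lines, and SFN of the epithelial list stood at 0.21 with overlapping groups (limma adjusted p = 0.475).

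Gene length separated the genes above from those below. The lines lay above the vectors in 48.7% of the 864 genes under 5 kb and in 8.28% of the 1883 genes of 100 kb or more, and below them in 2.55% and 25.4%. In the shortest class the median difference by line was 0.20, 0.30, 0.11 and 0.51, and in the longest class it was -0.07, -0.03, -0.08 and -0.11. The vectors, each set against the mean of the other two, stayed between -0.01 and 0.01 in every class. RAC3, NPM3, IER3, SERTAD1 and B3GALT6 span 2.53, 2.12, 1.35, 4.40 and 2.81 kb, while MAGI3, ZCCHC7, DLEU2, TET1 and HOOK3 span 295, 238, 143, 134 and 134 kb. With the length trend removed RAC3 stood at 0.73 and NPM3 at 0.69 (limma adjusted p = 0.209 and 0.25), and their lines still lay together. After the same removal ATP2A1-AS1 stood at 0.40, MRPL11 at 0.26, ATP5F1D at 0.28, BAX at 0.29, BAMBI at 0.27, SHMT2 at 0.21 and HOXC10 at 0.20, each over 1.5 times lower. MALAT1, a gene of 8.78 kb, does not share the sign of short genes and stood at -1.62 after that removal.

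**Figure D4:**
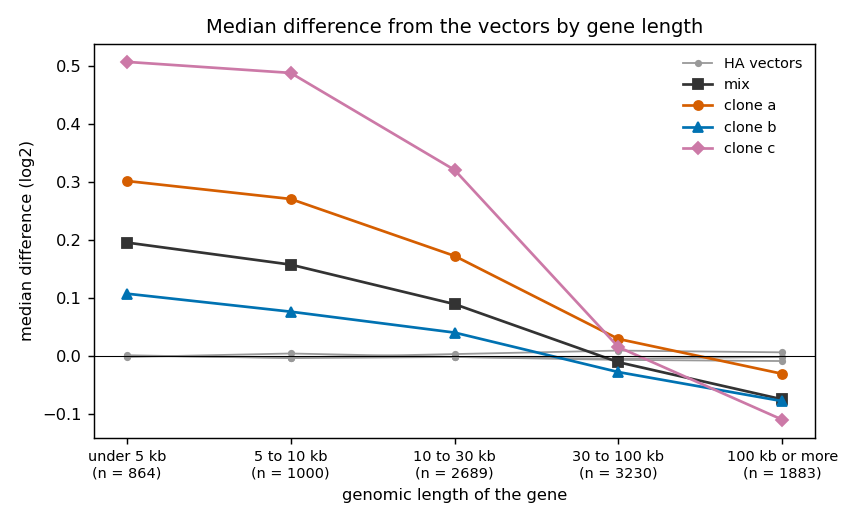
Median difference from the vectors (log2) by genomic length of the gene (RefSeq, GRCh38.p14) for each of the 7 arrays, with the number of genes per class under the axis; lines join the classes of an array. All 4 HOXD9 lines fall from the shortest to the longest class, most in clone c, and the 3 vectors stay within 0.01 of 0.

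The differences also followed chromosomes. On chromosome 19 the lines lay above the vectors in 46.7% of 587 genes and on chromosome 22 in 41.5% of 217, with median differences of 0.31 and 0.26. On chromosomes 13 and 4 they lay above in 6.42% of 187 and 7.54% of 358 genes, with medians of -0.16 and -0.19. The median of chromosome 19 by line was 0.19, 0.33, 0.11 and 0.58, and that of chromosome 13 was -0.07, -0.19, -0.06 and -0.34. By size the lines stood in the same order on both. Genes on chromosome 19 had a median length of 16.7 kb and those on chromosome 13 of 58.9 kb, and with the length trend removed the medians were 0.17 and -0.16. These are descriptions over genes, which are not replicates, and no test was made of them.

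**Figure D5:**
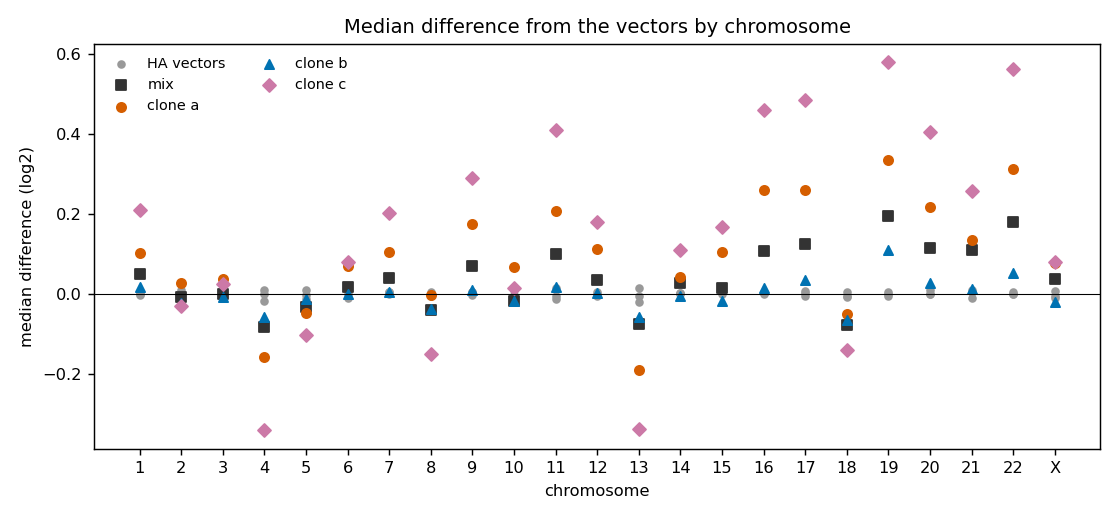
Median difference from the vectors (log2) over the genes of each chromosome with at least 50 genes tested, for each of the 7 arrays (grey: vectors; symbols: HOXD9 lines). Clone c spreads from -0.34 to 0.58 and clone a from -0.19 to 0.33, the mix and clone b spread less, and the vectors stay near 0.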

How the data were processed

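The authors deposited log2 expression values per probe set made with GCRMA, per the submitters' processing notes; the log2 scale was read from the values, and the software version is not given in the sources used here. GCRMA corrects background by probe sequence, gives arrays the same distribution and summarises probe sets. Sorted values of the 7 arrays used here were identical to within 0.00102, so these were normalized together. Precision is limited by the number of arrays, which have no read depth.

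Of 54675 probe sets, 41097 had 1 gene symbol in the platform annotation of 2016, 1801 several and 11777 none; 41043 were matched to RefSeq (GRCh38.p14) for symbols, lengths and chromosomes. Each gene was read by its brightest probe set on average and tested when that reached 5 on at least 3. HOXD9 lines and HA vectors were compared in limma 3.58.1 (lmFit, eBayes; R 4.3.3, 5 residual degrees of freedom, prior 3.20), two-sided, with Benjamini-Hochberg adjustment over 9670 genes. The gene lists, the members and the naming rule were chosen with earlier results of these data known. The naming rule took HOXD9, RAC3, NPM3, called genes, the 8 widest gaps on each side and the leading member of each list by p-value; the remaining names were picked with their values in view. Simulated data with known changes were used to test the fit. A gene list and a control probe set are not reported here. Alternatives changed the spread, prior, filter, probe set rule, centring, length trend, a covariate and the arrays used.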

Additional observations from a re-analysis of the deposited data

Results flagged for a closer look

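The difference between the 3 prime and 5 prime GAPDH control probe sets was 0.61 in clone c, apart from 0.64 in the mix, clone a and clone b. The median of the NOTCH, WNT, TGF-beta and BMP targets was 0.33 in clone c, apart from 0.09 in the mix, 0.10 in clone a and 0.11 in clone b. In each case the gap of the most distant line exceeded Dixon's critical value of 0.829 for 4 samples. Chance alone marks about 1 in 20 groups, and 71 were examined.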

How the results depend on the processing

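HOXD9 lost its call without the filter on low values (difference 4.26, limma adjusted p = 0.0668) and with the ACTB difference as a covariate (4.28, adjusted p = 0.0878); the count of called genes was then 0, with 2278 and 950 genes at an unadjusted p under 0.05. The count was 2 in the model of all 14 arrays, where RAC3 was called. Leaving out each array in turn left the count at 1, HOXD9, with its difference between 4.01 and 4.38 and its adjusted p between 6.37e-05 and 0.0401. The count of genes with all lines beyond all vectors was 3990 to 5501 when an array was left out, the highest without clone b. Of 605 values of the other 38 named genes under the alternatives, 4 had the opposite sign, in RPS9, SFN and COL1A1. The medians of 13 of 26 lists changed sign in at least 1 alternative, 9 of them with the length trend removed; the cause was not tested. No paired analysis was possible because the labels match no HOXD9 line to a vector culture. Transcripts near the array floor have no reliable fold, and 4 lines of a shared source against 3 vectors limit the precision.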
